A study of Mus musculus with 4 samples.

Results

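Kidney transcripts were followed in RNA from whole mouse brain. The 36 genes are textbook transcripts of the nephron, the filtering and reabsorbing unit of the kidney, and they were selected on the diet and strain log2 ratios of these same arrays, which were known when the list was made, so their direction is a description and not a finding. A gene belonged to the set when an accession carried by a probe on the array was one of its RefSeq accessions. 31 of the 36 genes were found in this way, among 33269 genes and unnamed transcripts on the array, 16531 of them named. Lrp2, Cubn, Miox, Pck1 and Fxyd2 had no matching probe. By segment, 18 of 22 proximal tubule genes, 6 of 7 genes of the loop and distal tubule, all 4 collecting duct genes and the 1 glomerulus gene had a probe, as did Dnase1 and Cdh16, which were placed in no single segment.

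The study asked whether whale meat extract in the diet alters memory and brain transcripts of SAMP8, a senescence-accelerated mouse line with early learning deficits. All mice were 50 weeks old at RNA preparation, had eaten ordinary chow until 24 weeks and then an experimental diet for 26 weeks, and went through behavioural tests for 8 days from week 49. The groups were SAMP8 on the low-safflower oil diet (LSO, the control), SAMP8 on a diet containing extract of minke whale red meat (WME), and SAMR1, the related senescence-resistant line, on LSO. The labels give both lines an AKR/J background with suspected outbreeding to another line, and do not give the number of mice behind an RNA or whether mice were pooled. Each of the 3 groups was taken as 1 RNA. Whether both pairs used the same SAMP8 LSO extract is not given. The diet pair set SAMP8 WME against SAMP8 LSO on 2 arrays with exchanged dyes, and the strain pair set SAMP8 LSO against SAMR1 LSO on 2 more. Both pairs shared the SAMP8 LSO group.

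The proximal tubule is the first stretch of the nephron and takes back most filtered glucose, phosphate, amino acids and organic acids through carriers of its brush border. Its cells also make glucose and oxidise fatty acids and foreign compounds, so gluconeogenic enzymes and cytochromes P450 are abundant there. The loop of Henle and the distal tubule carry dedicated salt cotransporters, the collecting duct carries aquaporins and the epithelial sodium channel, and the glomerulus filters blood through a nephrin-based slit diaphragm. None of these structures is part of the brain. Several of the genes are also known from other tissues: Fbp1, Cyp2e1 and G6pc from liver, Klk1 from salivary gland and pancreas, and Napsa from lung.

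Values are log2 ratios after background correction and loess normalization, turned so that a positive value means higher in SAMP8 WME (diet pair) or higher in SAMP8 LSO (strain pair). Means are given ± SD over the 2 arrays of a pair (n = 2 dye orientations of the same 2 RNAs). This SD is technical and holds the dye bias of a probe, so it says nothing of the spread between mice. With 1 RNA per group no test was possible and no p-value is given. Measured means that either RNA of a pair rose well above background on each of its arrays. Called means measured and, on each array, 1.5-fold or more apart with the same sign.

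The 4 arrays had median spot intensities of 267 to 347 per channel over local backgrounds of 65 to 75.5, with 81.0% to 85.2% of probes well above background and 0 saturated probes. Over all measured genes the SD of the log2 ratio was 0.0828 in the diet pair and 0.201 in the strain pair. All 10 neuronal and all 9 glial genes with a probe were measured in both pairs and 0 of them were called. The same held for all 10 skeletal muscle genes, so being measured does not identify the tissue.

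In the diet pair 8 of 30 measured members were called higher with WME and 0 were called lower. They were Kap, Cyp4b1, Acsm2, Fbp1, Slc34a1 and Cyp2e1 of the proximal tubule, Klk1 of the distal nephron, and Dnase1. Of all 26661 measured genes, 0.0563% (15 genes) were called higher and 0.03% (8 genes) lower, 0.0863% in either direction, so these 8 kidney transcripts were 8 of the 15. In the strain pair 4 of 29 measured members, Kap, Cyp4b1, Acsm2 and Dnase1, were called lower in SAMP8 LSO than in SAMR1 and 0 were called higher. The background there was 0.494% lower (133 of 26937 genes) and 0.969% higher (261 genes). Because these ratios were known when the genes were listed, nothing is read from either share. Among the called members, Acsm2 and Cyp2e1 passed as measured only through the RNA in which they were high. With both RNAs of a pair required well above background, 6 members were called in the diet pair and 3 in the strain pair, and the proximal tubule medians were 0.255 and −0.135. The share of all genes called under this stricter filter is not given, and the shares above do not apply to these counts. In bulk RNA such as this, fewer cells of a type and less RNA per cell cannot be told apart.

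**Figure D1:**
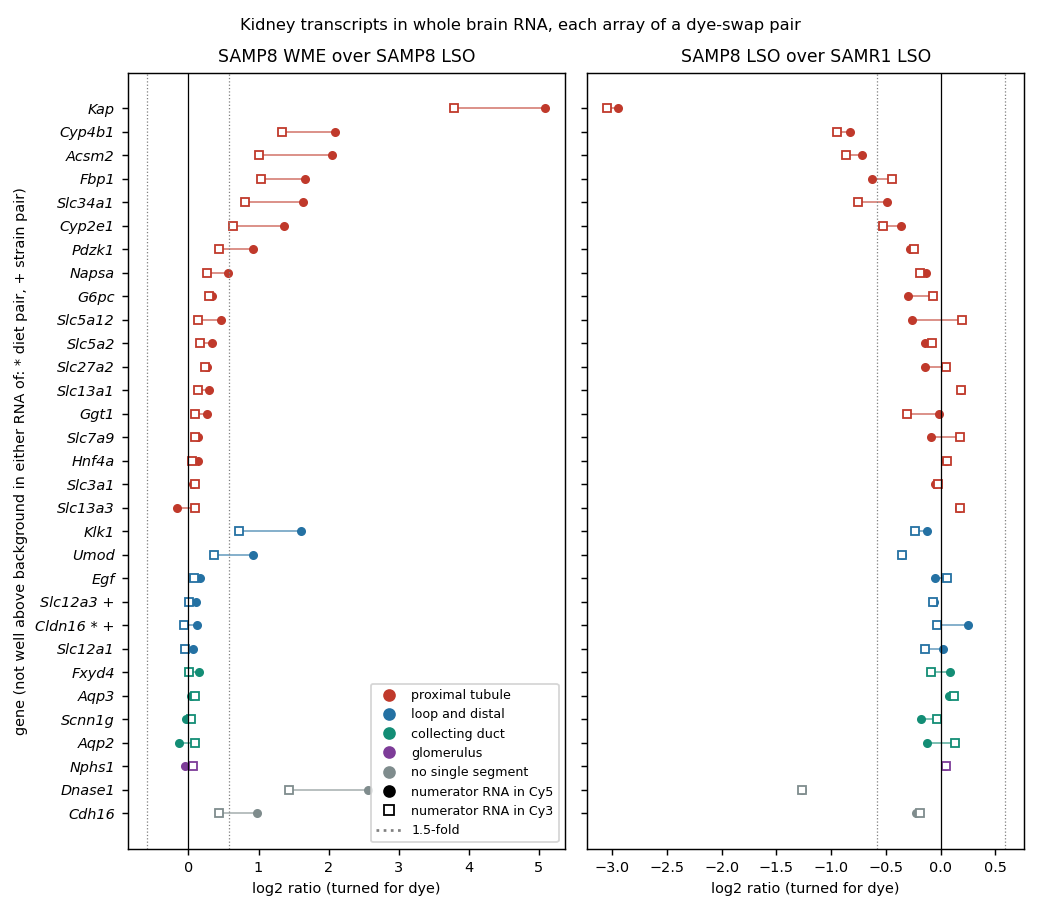
Log2 ratio of each of the 31 members on each array of the diet pair (left) and the strain pair (right), coloured by segment, with filled circles where the numerator RNA was in Cy5, open squares where it was in Cy3, and dotted lines at 1.5-fold. Kap stands at 5.09 and 3.79 on the left and at −2.95 and −3.05 on the right, and the collecting duct genes and Nphs1 lie near 0 on both sides.

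Promoter windows of some called members and of Pdzk1, which was not called, are shown first. The windows run from 250 bases before to 50 bases after the annotated start, from RefSeq (GRCm38.p6), on the strand of the gene. A window was available for 30 of the 36 genes, some with several starts, giving 39 windows. Genes without a probe, such as Miox and Pck1, are included. They were searched on both strands for a long hepatocyte nuclear factor 1 (HNF1) consensus, for a hepatocyte nuclear factor 4 (HNF4) motif, CAAAGTCCA, and for the HNF1 core GTTAAT, which lies within that consensus and was added after the files had been opened. HNF1 and HNF4 are transcription factors known for activating proximal tubule and liver genes. Capitals mark a match, read on either strand. Kap (chr6:133853618-133853917, minus strand), Slc34a1 (chr13:55399398-55399697, plus strand), Acsm2 (chr7:119554090-119554389, plus strand), Dnase1 (chr16:4036786-4037085, plus strand) and Pdzk1 (chr3:96829815-96830114, plus strand) were chosen as the largest ratio, the 3 called members with a core, and the member with an HNF4 match that came nearest to the calling threshold.
Kap: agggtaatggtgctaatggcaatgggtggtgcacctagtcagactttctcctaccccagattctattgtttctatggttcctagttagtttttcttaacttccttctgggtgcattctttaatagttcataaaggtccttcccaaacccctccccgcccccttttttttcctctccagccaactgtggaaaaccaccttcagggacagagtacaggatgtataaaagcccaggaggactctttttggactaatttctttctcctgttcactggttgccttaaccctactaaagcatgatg
Slc34a1: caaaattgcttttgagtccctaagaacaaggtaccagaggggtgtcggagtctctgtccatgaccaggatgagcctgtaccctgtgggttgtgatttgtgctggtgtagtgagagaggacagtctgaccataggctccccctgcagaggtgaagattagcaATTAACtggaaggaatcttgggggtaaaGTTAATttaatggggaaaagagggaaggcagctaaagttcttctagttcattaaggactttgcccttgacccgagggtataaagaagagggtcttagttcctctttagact
Acsm2: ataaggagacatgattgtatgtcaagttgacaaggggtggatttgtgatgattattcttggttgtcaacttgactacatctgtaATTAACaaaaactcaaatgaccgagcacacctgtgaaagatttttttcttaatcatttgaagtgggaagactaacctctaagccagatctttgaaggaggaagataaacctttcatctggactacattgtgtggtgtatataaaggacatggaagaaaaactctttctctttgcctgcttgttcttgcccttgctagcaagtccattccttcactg
Dnase1: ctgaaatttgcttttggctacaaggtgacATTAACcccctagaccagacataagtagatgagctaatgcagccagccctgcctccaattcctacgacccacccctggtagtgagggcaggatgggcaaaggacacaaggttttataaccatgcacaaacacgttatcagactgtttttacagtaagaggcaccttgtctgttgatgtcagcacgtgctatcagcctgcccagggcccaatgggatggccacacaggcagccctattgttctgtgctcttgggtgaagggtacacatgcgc
Pdzk1: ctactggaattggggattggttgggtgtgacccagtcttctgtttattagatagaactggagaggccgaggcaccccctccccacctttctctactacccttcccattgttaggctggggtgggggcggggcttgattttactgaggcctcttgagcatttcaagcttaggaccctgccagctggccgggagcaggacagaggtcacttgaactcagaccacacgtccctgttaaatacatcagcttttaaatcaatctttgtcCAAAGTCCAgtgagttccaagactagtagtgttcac

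The Kap window held none of these letters. Slc34a1 held the core in both orientations, and Acsm2 and Dnase1 each held it once, in the reverse orientation. The core GTTAAT lay in 9 of the 39 member windows (23.1%) and in 7.1% of all 32851 promoter windows (2332). It lay in 7 of 25 proximal tubule windows (28%) and in 1 of 12 windows of the other segments (8.33%), that of Umod. Among 78 windows of proximal tubule genes outside the member list it lay in 11 (14.1%). The long HNF1 consensus was found in 1 member window, that of G6pc (0.399% of all windows), and the HNF4 motif in those of Pdzk1 and Slc3a1 (0.475% of all windows). Of the 10 windows of the 8 called members, 3 held the core, and 0 held the long HNF1 or the HNF4 motif. A match is a string of letters in a window, not a bound site.

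Kap, the kidney androgen-regulated protein, a secreted proximal tubule product known for its control by androgens in mice, had the largest difference of all members. Its raw median intensity was 4388 and 3533 in SAMP8 WME against 114 and 151 in SAMP8 LSO on the diet arrays, and 133 and 121 in SAMP8 LSO against 924 and 1079 in SAMR1 on the strain arrays. The SAMP8 LSO values were the lowest on all 4 arrays, SAMR1 was intermediate and SAMP8 WME was highest, with no overlap. The diet log2 ratio was 5.09 and 3.79 (4.44 ± 0.92, 21.7-fold), and the strain ratio was −2.95 and −3.05 (−3.00 ± 0.07, 8.01-fold lower in SAMP8 LSO). The normalized log2 intensity of SAMP8 WME was 12.00 and 11.90 on its arrays, while that of SAMP8 LSO was 6.91 and 8.11 on the same arrays and 7.12 and 6.93 on the strain arrays. The difference between the diet arrays therefore lay in the dim channel.

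Among the proximal tubule enzymes, Cyp4b1, a cytochrome P450 that oxidises fatty acids and foreign compounds, had raw intensities of 768 and 636 with WME against 161 and 206 with LSO. On the strain arrays it gave 188 and 174 in SAMP8 LSO and 294 and 364 in SAMR1. Its diet ratio was 2.09 and 1.34 (1.71 ± 0.53, 3.28-fold) and its strain ratio −0.83 and −0.95 (−0.89 ± 0.08). As for Kap, all values of SAMP8 WME lay above those of SAMR1, and those of SAMR1 above those of SAMP8 LSO.

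Acsm2, a mitochondrial acyl-CoA synthetase for medium-chain acids, gave 334 and 288 with WME and 76 and 96 with LSO, and its LSO signal was well above background on 1 of these 2 arrays. On the strain arrays this probe gave 82 and 75 in SAMP8 LSO, not well above background, against 114 and 141 in SAMR1. The diet ratio was 2.05 and 1.00 (1.52 ± 0.74). By this probe the strain ratio was −0.72 and −0.86 (−0.79 ± 0.10, 1.73-fold lower in SAMP8 LSO). With SAMP8 LSO not well above background, the size of this difference is uncertain. The second Acsm2 probe gave diet ratios of 1.51 and 0.66. On the strain arrays it was well above background in both RNAs, at 87 and 99 in SAMP8 LSO against 102 and 124 in SAMR1, and its ratios of −0.40 and −0.25 (1.25-fold lower in SAMP8 LSO) were not called. The probes thus disagreed on the size of the strain difference, and the strain call of Acsm2 rested on the brighter one.

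Fbp1, the fructose bisphosphatase of gluconeogenesis, gave 692 and 523 with WME, 194 and 217 with LSO on the diet arrays, 188 and 249 in SAMP8 LSO on the strain arrays and 265 and 376 in SAMR1. Its diet ratio was 1.67 and 1.03 (1.35 ± 0.45, 2.55-fold). Its strain ratio of −0.63 and −0.44 (−0.54 ± 0.13) passed 1.5-fold on 1 array and was not called. Cyp2e1, a cytochrome P450 that oxidises ethanol and ketones, gave 221 and 193 with WME, while SAMP8 LSO was not well above background on any of its 4 arrays (80 and 90, then 86 and 80) and SAMR1 gave 98 and 124. By its mean ratios Cyp2e1 was 2.01-fold higher with WME and 1.36-fold higher in SAMR1. With SAMP8 LSO so dim, the size of both differences is uncertain. The array values of Cyp2e1 were 1.37 and 0.63 in the diet pair and −0.36 and −0.53 in the strain pair.

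Among the carriers, Slc34a1, the sodium phosphate cotransporter of the brush border, was the only one of the 7 carriers described here with a diet call. It gave 294 and 250 with WME and 87 and 98 with LSO, then 96 and 95 in SAMP8 LSO and 125 and 167 in SAMR1. Its diet ratio was 1.63 and 0.80 (1.21 ± 0.59, 2.32-fold) and its strain ratio −0.49 and −0.75 (−0.62 ± 0.18), past 1.5-fold on 1 array. The other carriers stayed under 1.5-fold on every array of both pairs. Slc5a2, the glucose carrier, had a mean diet ratio of 0.25, Slc5a12, a carrier of lactate, 0.30, and Slc13a1, the sulfate carrier, 0.21. Slc3a1 and Slc7a9, the subunits of the cystine transporter, stood at 0.08 and 0.12. Slc13a3, a dicarboxylate carrier, was the 1 proximal tubule member that was not above 0 on both diet arrays (−0.17 and 0.09), with raw intensities between 612 and 736 in all RNAs.

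The remaining proximal tubule members had smaller ratios. Pdzk1, a scaffold that anchors carriers at the brush border, had diet ratios of 0.92 and 0.43 (0.67 ± 0.35), past 1.5-fold on 1 array, and strain ratios of −0.28 and −0.24. Napsa, the lysosomal protease napsin A, had 0.56 and 0.27, and G6pc, the glucose phosphatase of gluconeogenesis, 0.34 and 0.30. Slc27a2, which carries and activates fatty acids, stood at a mean of 0.25, Ggt1, the gamma-glutamyl transferase of the brush border, at 0.18, and the transcription factor Hnf4a at 0.09. None of these 6 genes was called in either pair.

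Over all 18 proximal tubule members the median diet ratio was 0.314, from −0.04 (Slc13a3) to 4.44 (Kap), against 0.004 over all measured genes. 17 of the 18 were above 0 on both diet arrays and 0 below, where 20.6% of all measured genes were above 0 on both and 17.6% below. Their median strain ratio was −0.16, from −3.00 (Kap) to 0.19 (Slc13a1), against −0.007 over all genes. 12 of the 18 were below 0 on both strain arrays and 3, Slc13a1, Slc13a3 and Hnf4a, were above, where 26.6% of all genes were below and 23.9% above.

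**Figure D2:**
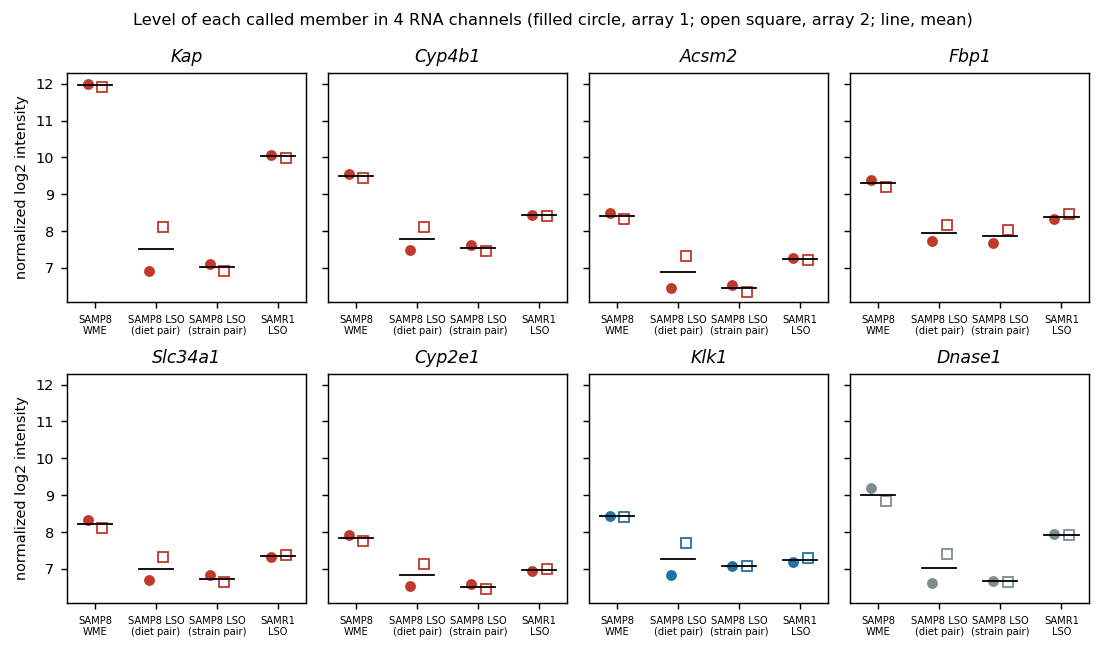
Normalized log2 intensity of the 8 called members in each RNA, with SAMP8 LSO drawn separately for the diet and strain arrays, a filled circle for the first array of a pair, an open square for the second, and a line at their mean. SAMP8 WME is highest for each gene, and the SAMP8 LSO square of the diet pair lies above its circle for each, as for Kap at 8.11 against 6.91.

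In the loop and distal tubule, Klk1, the tissue kallikrein that distal nephron cells secrete into urine, was the 1 member called. It gave 327 and 308 with WME and 102 and 156 with LSO, then 112 and 131 in SAMP8 LSO and 116 and 166 in SAMR1. Its diet ratio was 1.6 and 0.72 (1.16 ± 0.62, 2.24-fold), while its strain ratio was −0.12 and −0.23 (−0.17 ± 0.08, 1.13-fold lower). Klk1 was thus the called member with the smallest strain ratio. Klk1 belongs to a family of very similar kallikrein genes, and signal from its relatives cannot be told apart from its own on 1 probe.

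Umod, uromodulin, the main secreted protein of the thick ascending limb, gave 180 and 141 with WME and 87.5 and 85 with LSO. Its diet ratio of 0.92 and 0.36 (0.64 ± 0.39) passed 1.5-fold on 1 array, and its strain ratio was −0.35 on both. The salt cotransporters of the loop and the distal convoluted tubule did not differ by 1.5-fold on any array: Slc12a1 had diet ratios of 0.06 and −0.05, and Slc12a3 had 0.11 and 0.01 with LSO not well above background. Egf, the precursor of epidermal growth factor, made in the distal tubule, had 0.17 and 0.08. Cldn16, a tight junction protein of the thick ascending limb, was not well above background in any RNA and gave no value.

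In the collecting duct, the water channels Aqp2 and Aqp3 had mean diet ratios of −0.02 and 0.06, the sodium channel subunit Scnn1g 0.00, and Fxyd4, a regulator of the sodium pump, 0.08. Their mean strain ratios were 0.01, 0.10, −0.11 and 0.00 in that order. Aqp2 was one of the brighter members, with raw intensities of 662 and 512 with WME, 620 and 529 with LSO on the diet arrays, 504 and 1037 in SAMP8 LSO and 498 and 1100 in SAMR1, and its array values moved with the array and not with the RNA. Nphs1, nephrin of the glomerular slit diaphragm, had diet ratios of −0.05 and 0.07 and strain ratios of 0.04 and 0.05.

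Across the loop, distal, collecting duct and glomerulus genes the median diet ratio was 0.062 over the 10 measured, with 6 above 0 on both arrays and 0 below, against 0.314 and 17 of 18 for the proximal tubule. Their median strain ratio was 0.002 over the 9 measured, with 3 below 0 on both arrays and 2 above, against −0.16 and 12 of 18. The medians of these 10 genes were within 0.1 of that of all genes in both pairs, and Klk1 and Umod were the 2 with a mean diet ratio above 0.2. The difference between segments is described and was not tested, since the genes were chosen with these ratios known.

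Of the genes placed in no single segment, Dnase1, a secreted endonuclease abundant in kidney and salivary gland, gave 562 and 422 with WME, 86.5 and 92.5 with LSO on the diet arrays, 94.5 and 100 in SAMP8 LSO and 200 and 244 in SAMR1. Its diet ratio was 2.56 and 1.43 (2.0 ± 0.80, 3.99-fold) and its strain ratio −1.27 on both arrays (2.41-fold lower). In the diet pair its ratio came after that of Kap alone. Cdh16, the kidney-specific cadherin found along most of the tubule, gave 250 and 189 with WME and 113 and 119 with LSO. Its diet ratio of 0.98 and 0.44 (0.71 ± 0.38) passed 1.5-fold on 1 array, and its strain ratio was −0.22 and −0.19.

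The size of these ratios depended on the processing. Without the offset alone, the mean diet ratio was 4.99 for Kap, 2.68 for Dnase1 and 2.35 for Acsm2. With the processed signals of the scanner software, which differ in both background correction and dye normalization, the diet difference was 61.4-fold for Kap, 21.1-fold for Dnase1, 9.3-fold for Slc34a1, 5.49-fold for Cyp4b1, 4.17-fold for Klk1 and 3.8-fold for Fbp1. The strain difference was then 16.7-fold for Kap and 5.66-fold for Dnase1, both again lower in SAMP8 LSO. Acsm2 then stood at 17.8-fold (diet) and 8.74-fold (strain) and Cyp2e1 at 9.86-fold and 4.16-fold. Their LSO signals were mostly not well above background, so the size of these folds is uncertain. In the strain pair Acsm2 thereby came above Dnase1, whereas with the offset Dnase1 was above it. On these signals 14 members were called higher in the diet pair, where 0.233% of all genes were, the added ones being Slc5a2, Slc5a12, Napsa, Pdzk1, Umod and Cdh16. For the strains 7 were called lower, where 1.08% of all genes were, the added ones being Fbp1, Slc34a1 and Cyp2e1. No collecting duct or glomerulus gene was called on these signals in either pair.

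Adding the ratios of both pairs within a dye orientation gives SAMP8 WME over SAMR1 LSO, an indirect value through the shared SAMP8 LSO group. By this sum 2 of 30 measured members, Kap and Fbp1, were called higher and 0 lower, where 0.792% of 27025 genes were called higher and 0.433% lower. The sum was 2.14 and 0.74 for Kap (1.44 ± 0.99) and 1.03 and 0.59 for Fbp1 (0.81 ± 0.32). For the other 6 called members the mean sum lay between 0.56 (Cyp2e1) and 0.99 (Klk1), with 1 orientation under 1.5-fold in each. The median sum was 0.263 for the 18 proximal tubule members, 0.072 for the 10 measured genes of the other segments and −0.002 for all genes. The 16 proximal tubule members above 0 in both orientations compare with 19% of all genes.

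Detection of the 31 members together was near or above that of all genes on the array. Members of the other segments fell below it in SAMP8 LSO. On both arrays of a pair, 30 of the 31 members were well above background in SAMP8 WME, 24 in SAMP8 LSO on the diet arrays, 26 in SAMP8 LSO on the strain arrays and 29 in SAMR1. Over all genes the shares were 79.7%, 78.3%, 79.8% and 79.8% in that order. For the 18 proximal tubule members these counts were 18, 15, 16 and 18, and for the 11 of the other segments 10, 7, 8 and 9. Acsm2, Cyp2e1, Slc5a12, Umod, Slc12a3 and Fxyd4 were well above background on both diet arrays in SAMP8 WME and not in SAMP8 LSO, and no member showed the reverse. Over all 33269 genes 1.79% were so with WME and 0.409% the other way, so the asymmetry was not limited to the members. In the strain pair Cyp2e1, Umod and the brighter probe of Acsm2 were well above background on both arrays in SAMR1 and not in SAMP8 LSO, with none the other way, where all genes gave 1.2% and 1.15%. Counting any probe of a gene, Acsm2 was detected in SAMP8 LSO on the strain arrays, and 27 members were.

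The SAMP8 LSO group was measured in both pairs, which allows its own repeat to be set beside the differences. Its mean normalized log2 intensity differed between pairs by −0.49 to 0.32 over the 29 members measured in both (median −0.04, strain pair minus diet pair), against an SD of 0.1 over 26390 genes. The lowest value was that of Kap. For each called member the second diet array, with LSO in Cy5, gave the higher normalized LSO level and the smaller ratio. The size of this gap depended on the processing. With the processed signals the ratio was again smaller on the second array for each. The gap then shrank for most, to 4.42 and 4.37 for Dnase1 and 3.38 and 3.22 for Cyp2e1. It did not shrink for Acsm2 (4.75 and 3.55) and Klk1 (2.52 and 1.61).

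**Figure D3:**
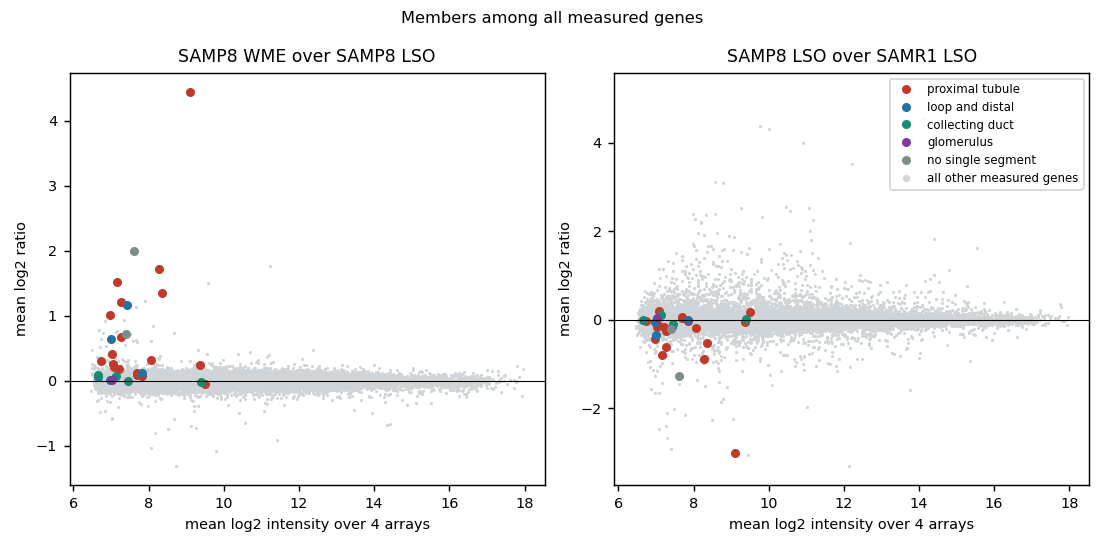
Mean log2 ratio against mean log2 intensity over the 4 arrays for every measured gene (grey) and the members by segment, in the diet pair (left) and the strain pair (right). On the left Kap, at 4.44, and Dnase1, at 2.0, lie above every other gene, and on the right the members lie inside a much wider cloud, with Kap at −3.00.

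Other proximal tubule genes, from a list that holds no member, were used to see how far the values extended. Of 74 with a probe, 64 were measured in the diet pair and 0 were called lower. Their median diet ratio was 0.062, with 37 above 0 on both arrays and 2 below. In the strain pair 59 were measured, with a median of −0.015, 16 above 0 on both arrays and 20 below. Slc47a1, which exports organic cations into urine, was called higher in SAMP8 LSO, at 0.96 and 1.15 (1.06 ± 0.14, 2.08-fold), with 643 and 680 against 309 and 347, and its diet ratio was −0.23 and −0.10.

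The other genes of the loop, distal tubule, collecting duct and glomerulus and the nephron transcription factors had 32 measured in the diet pair, 0 called, a median of 0.018, 12 above 0 on both arrays and 3 below. Marker genes of liver, lung, adrenal, intestine, skeletal muscle and pancreas had 53 measured in the diet pair, 0 called in either pair, a median of 0.006, 20 above 0 on both arrays and 6 below. Liver markers, given because Fbp1 and Cyp2e1 are also liver genes, had a median of 0.049 over 15 measured genes, from −0.03 to 0.28. Of these, 9 were above 0 on both diet arrays and 0 below. Alb, Fgb, Fgg, Ahsg and Serpina3k were well above background on both diet arrays with WME and not with LSO. No marker of these tissues showed the reverse, and over all genes 1.79% and 0.409% did so. The part of liver transcripts in the ratios of the kidney members was not tested. Markers of the choroid plexus, an epithelium of the brain ventricles that shares carriers with the tubule, had a median of 0.055 in the diet pair and −0.148 in the strain pair, where 7 of 10 were below 0 on both arrays and 0 were called. The part of the choroid plexus in the strain ratios of the kidney members was not tested.

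**Figure D4:**
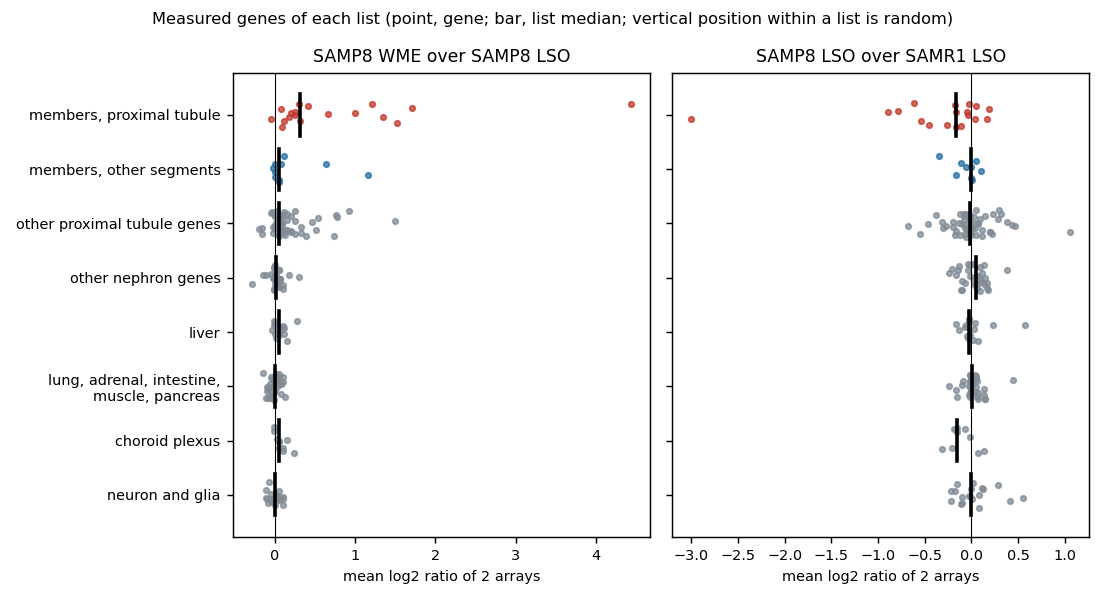
Mean log2 ratio of each measured gene (points) by list, with the list's median as a bar, in the diet pair (left) and the strain pair (right). Proximal tubule members have medians of 0.314 and −0.16, members of the other segments 0.062 and 0.002, and other proximal tubule genes 0.062 and −0.015.

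In the diet pair, dim probes more often had the same sign on both arrays than bright ones. Among measured genes ordered by mean log2 intensity, 24.8% of the dimmest quartile were above 0 on both diet arrays and 22.7% below, against 15.2% and 12.9% of the brightest, with medians of 0.003 and 0.002. All 30 measured members but 3 lay in the 2 dimmer quartiles, 18 in the dimmest and 9 in the next. Within the dimmest quartile all 9 proximal tubule members were above 0 on both arrays (median 0.415), as were 5 of 8 members of the other segments (0.062), 20 of 28 other proximal tubule genes (0.178), 4 of 11 other nephron genes (0.014) and 14 of 26 markers of other tissues (0.030). In the strain pair, 7 of 9 proximal tubule members and 1 of 5 members of the other segments in the dimmest quartile were below 0 on both arrays, where 27.4% of all genes in that quartile were.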

How the data were processed

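Total RNA of whole brain of 3 groups was measured on 4 Agilent mouse arrays of 1 slide, each with a Cy3 and a Cy5 channel. The deposited scanner files hold spot intensity values from Agilent Feature Extraction, which per the file headers was version 11.0.1.1. Per the file headers, median spot intensity and background are raw and the processed signals are background-subtracted and dye-normalized. The authors' deposited series table holds log2 ratios and the scanner files a log10 ratio, neither of which was used for the values reported. The sources used here do not say how many mice made up an RNA.

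Median intensities were corrected by normexp (offset 50) and normalized by loess within each array (limma 3.58.1 under R 4.3.3), giving control spots no weight, and outlier spots (105 to 123 per array) left out. The design named mean signals; the files held medians, which were used. The offset pulls ratios of dim probes towards 0. Of 41174 probes, 23366 were named through RefSeq accessions of GRCm38.p6, used for names and promoters only, and 17808 were not. The brightest probe stood for a gene. Ratios were turned for dye and the 2 arrays of a pair counted as 1 replicate. Members called in either pair are given array by array, the others by range and counts, singly where a segment had under 8 members, with up to 10 called other kidney genes. An item of the other kidney genes is not reported here. The members, lists and motifs were chosen with earlier results of these data known.

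Tested on simulated intensities of 33269 genes, the procedure called 50 of 50 genes made 4-fold higher and 35 of 50 made 2-fold higher in the diet pair, with 0 in the wrong direction. The 50 genes made 1.5-fold lower gave 3 calls. The changed genes were drawn from all genes measured in both pairs, with the same noise at every intensity. Most members were dim, so these rates need not hold for them. Alternatives changed the signals, offset, centring, filter, threshold, probe rule, segment of Klk1 and Dnase1, and left out each array. The small number of arrays and RNAs limits precision and leaves the spread between mice unmeasured.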

Additional observations from a re-analysis of the deposited data

How the results depend on the processing

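Leaving out 1 array gave 8 to 11 member calls in the diet pair and 5 in the strain pair, against 8 and 4; of all genes, 0.289% to 0.379% and 2.09% to 2.1% were then called. With Feature Extraction's processed signals the diet pair had 14 called members and the strain pair 7. At 2-fold the counts were 5 and 2 (0.0338% and 0.516% of all genes), at 1.2-fold 13 and 8 (0.281% and 4.53%), and with offset 0 the strain pair had 7 (2.14%). The proximal tubule median was 1.09 (diet), −0.37 (strain) and 0.874 (sum) with processed signals, 0.513, −0.258 and 0.41 with offset 0, and −0.221 in the strain pair with offset 16. Without 1 array it ran from 0.253 to 0.405 (diet), −0.202 to −0.137 (strain) and 0.213 to 0.346 (sum). The other segments' diet median was 0.198 with processed signals, 0.091 with offset 16, 0.121 with offset 0, 0.013 where both RNAs had to be above background, 0.078 to 0.086 without 1 array, and −0.053 under median centring, which moved the median of all genes to 0.066. Their strain median of 0.002 turned to −0.044 with processed signals and to −0.051 to −0.029 without 1 array, so it has no stable sign. Their sum median was 0.205 with processed signals, 0.007 under median centring, 0.113 with offset 16, 0.125 with offset 0 and 0.071 to 0.094 without 1 array; the cause was not tested.

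Of 140 alternative values of the 8 called members for which a call can be made, none changed direction, 129 stayed on their side of the calling threshold, 9 became called, and 2 calls were lost: Cyp2e1 in the diet pair under median centring (0.93) and Acsm2 in the strain pair with the median over its probes (−0.56). The 140 leave out the other fold thresholds and values removed by a filter. Requiring both RNAs well above background took out the calls of Acsm2 in both pairs and of Cyp2e1 in the diet pair. At 2-fold the calls of Slc34a1, Cyp2e1 and Klk1 (diet) and of Cyp4b1 and Acsm2 (strain) were lost. Ratios of the called members were larger with processed signals, at 5.94 for Kap, 4.40 for Dnase1 and 4.15 for Acsm2 in the diet pair. Normalized levels of SAMP8 WME minus SAMR1, an alternative chosen after seeing the data, gave 1.93 for Kap and 0.87 to 1.18 for the other 7. These levels were normalized together with the SAMP8 LSO channel of the same arrays, so they are not free of the shared group. The quartiles by brightness and the core GTTAAT were also added after seeing the data.

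No paired analysis was possible because the labels give no replicate numbers and the arrays of a pair are a dye swap of the same RNAs. Dim signals are a further limit: Cldn16 was not well above background in any RNA, nor were Cyp2e1 and the brighter Acsm2 probe in SAMP8 LSO on the strain arrays.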
